A study of Homo sapiens with 6 samples.

Results

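The tumor necrosis factor (TNF) superfamily comprises secreted or membrane-bound ligands and the receptors that bind them. Its members were examined here in BT-549 cells with and without silencing of IRF1, which encodes an interferon (IFN)-induced transcription factor. Members were chosen by gene symbol, as the 32 listed symbols that start with TNFSF or TNFRSF followed by a number and at most one letter, and a further 12 that carry other names (TNF, LTA, LTB, CD40, CD70, CD27, FAS, FASLG, LTBR, NGFR, EDAR and EDA2R). These are 44 of the 37887 symbols in the count table, of which 16 are ligands, 8 are receptors with a death domain, 4 are decoy receptors and 16 are other receptors, most of which bind TRAF adaptors.

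The BT-549 line was derived from a triple-negative breast cancer and is long established. DMSO at 0.1% was given to the 3 control samples, and doxycycline at 500 ng/ml, which switches on the hairpin, to the 3 IRF1shRNA samples. By their titles the controls carry a control shRNA, but the series text describes 1 line with an inducible IRF1 hairpin, so all 6 samples may carry that vector. Since no control received doxycycline, effects of the drug and of the hairpin cannot be told apart. Cells were cultured in triplicate, but the duration of treatment and whether the triplicates came from independent experiments are not given in the sources used here, and p-values therefore measure the spread between these samples, which may be technical.

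TNF superfamily ligands assemble as trimers and cluster their receptors. Receptors with a death domain recruit FADD or TRADD and can start caspase-8-dependent apoptosis or NF-κB signaling, whereas the other signaling receptors bind TRAF proteins directly. Decoy receptors bind ligand without passing on a death signal. TRAIL, encoded by TNFSF10, binds several receptors, namely the death receptors DR4 and DR5, the membrane decoys DcR1 and DcR2, and the soluble decoy osteoprotegerin. Many of the other ligands, among them TNF, FASLG and CD40-type ligands, are made chiefly by leukocytes.

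The 6 libraries held 55143808 to 160436234 counts, and the IRF1shRNA replicate 2 library was the shallowest. IRF1 fell to 29.9% of control (log2 fold change −1.74 ± 0.06, SE; adjusted p = 4.53e-13). Levels are given as counts in each 1000000 of the library (CPM), scaled by the trimmed mean of M values (TMM), and fold changes and adjusted p-values are from edgeR. The 44 members together took 767 to 829 CPM of each library before that scaling. The mesenchymal gene VIM was at 593 to 945 CPM over the 6 samples, and the epithelial genes CDH1 and EPCAM were under 1 CPM in every sample. ESR1 and PGR were also under 1 CPM, while ERBB2 was at 50.8 ± 3.67 CPM in control samples (SD, n = 3). Of 8 leukocyte markers, MS4A1 and CD2 had no count and 6 in all were under 1 CPM in every sample. The summed leukocyte list ran from 127 to 131 CPM in control and from 83.7 to 88.2 CPM in IRF1shRNA samples, nearly all of it from NCAM1, which is not particular to leukocytes. CD14, the other marker that reached 1 CPM, went the other way, from 1.09 ± 0.135 to 2.22 ± 0.189 CPM (SD, n = 3 each; adjusted p = 1.43e-05 by edgeR).

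Expression of a minority of members made up most of the family's transcripts. Levels between genes are compared per length, as CPM divided by the kilobases of exon of each gene (CPM per kb). In control samples the highest levels were 67.6 ± 4.01 CPM per kb for TNFRSF1A, the main receptor for TNF, and 62.1 ± 2.99 for TNFRSF12A, the receptor for TWEAK (SD, n = 3 each), which overlapped within their SDs. CD70 at 30.6 ± 2.49 and TNFRSF10B at 29.6 ± 0.316 CPM per kb followed and overlapped likewise. TNFRSF21 at 20.9 ± 0.444 and LTBR at 14.5 ± 1.01 CPM per kb came next. These 6 genes held 91.9% of the summed control level of the family and 90.4% of that in IRF1shRNA samples. NGFR (1.94 ± 0.0836), TNFRSF10A (1.86 ± 0.0995), TNFRSF10D (1.74 ± 0.144) and TNFRSF11B (1.60 ± 0.0860 CPM per kb) lay close together in control samples, and neighbors in this order overlapped within their SDs. After silencing, TNFRSF10D at 7.40 ± 0.373 CPM per kb stood above TNFSF9 at 6.21 ± 0.317, and TNFRSF10A was at 0.713 ± 0.0808.

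**Figure D1:**
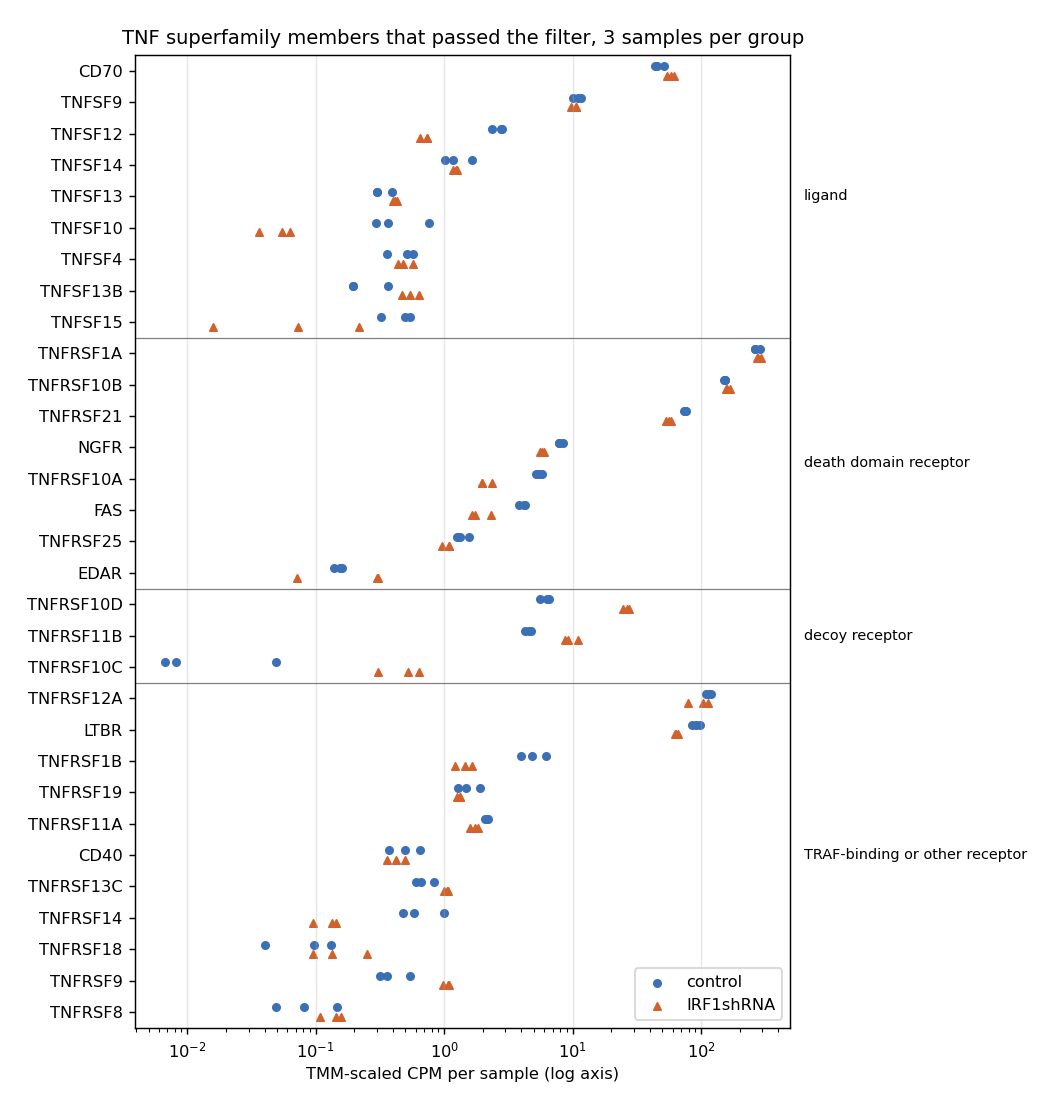
TMM-scaled CPM (log axis) of each member that passed the filter on low counts, with a point for each of 3 control (circles) and 3 IRF1shRNA samples (triangles), grouped by role and ordered by control level per length. TNFRSF10D, TNFRSF10C and TNFRSF11B lie to the right of control, and TNFSF10, TNFSF12, TNFRSF10A, FAS, TNFRSF1B and TNFRSF14 to the left.

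The question was which of these genes change when IRF1 is silenced. Of the 44 members, 31 passed the filter on low counts and were tested, and 19 of them had an adjusted p under 0.05, against 50.5% of all 18851 genes tested. There were 12 members lower in IRF1shRNA samples, where the share of all genes was 26.4%, and 7 higher, where it was 24.1%. With a change over 2-fold as well, 7 members were lower (4.43% of all genes) and 5 were higher (3.43% of all genes), which makes 12 in either direction against 7.86% of all genes. The samples of the groups did not overlap in 21 of the 31, and in 56.8% of all genes. The median log2 fold change of the tested members was −0.08 and that of all genes −0.0024, while the median size of the change was 0.57 against 0.28. A member that is scarce in 1 group could pass the filter through the other group alone. These figures therefore describe the members that passed and not the family. Of the members called, TNFSF10 and TNFSF15 passed through the control samples alone, and TNFRSF10C through the IRF1shRNA samples alone. In bulk RNA, fewer cells that express a gene and less RNA per cell cannot be told apart.

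**Figure D2:**
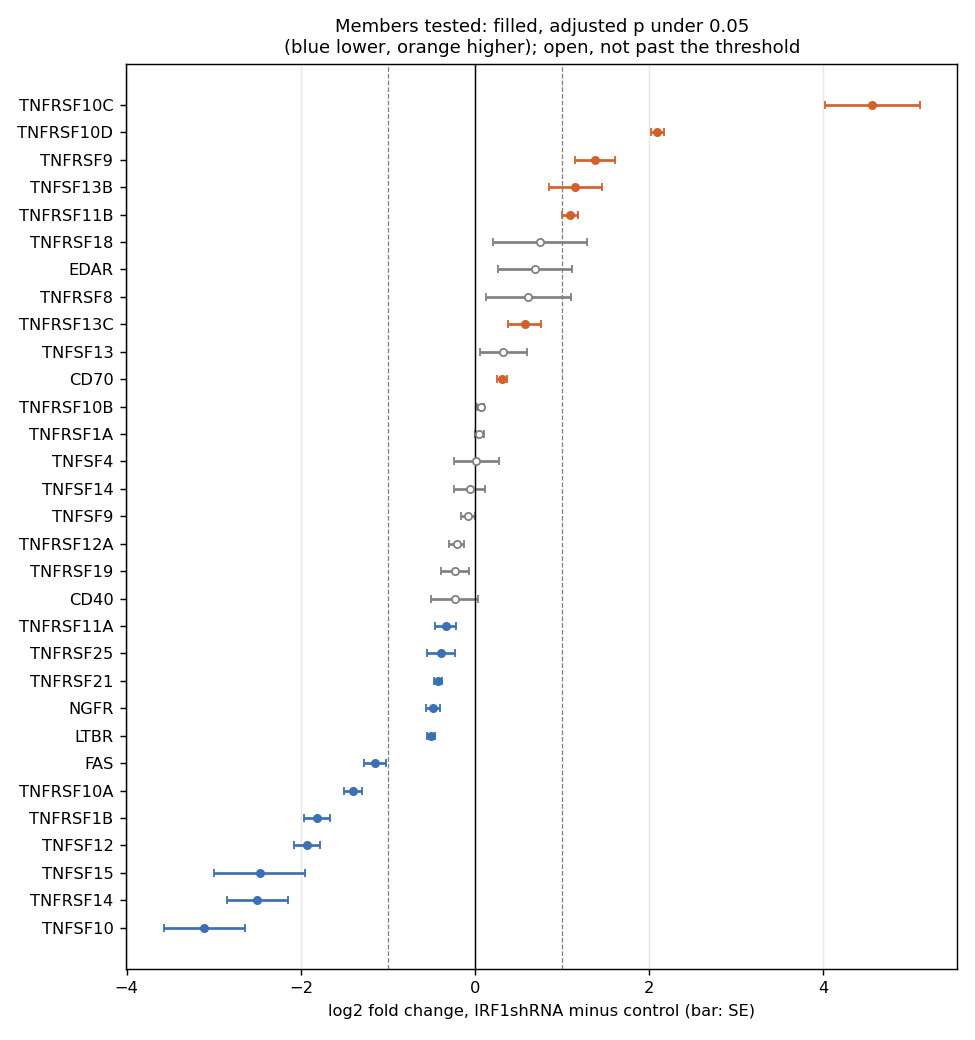
The log2 fold change of each of 31 tested members, IRF1shRNA minus control, with its SE as a bar. Filled points passed an adjusted p of 0.05 (12 lower in blue, 7 higher in orange), and dashed lines mark a 2-fold change.

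TRAIL and its receptors moved in different directions. TNFSF10, which encodes TRAIL, had 0.292, 0.367 and 0.758 CPM in the control samples (here and throughout in the order of replicates 1 to 3), against 0.0635, 0.0360 and 0.0547 CPM after silencing. The groups did not overlap, and control replicate 3 was the highest. TRAIL after silencing was at 10.9% of control (log2 fold change −3.11 ± 0.47, SE; adjusted p = 2.31e-05), although the transcript was scarce throughout, with 36 to 113 counts per control library and 2 to 9 per IRF1shRNA library. A count of 3, the smallest taken as detected, corresponds to 0.0182 to 0.0540 CPM depending on the library. The IRF1shRNA values therefore lie near that floor. TNFSF10 passed the filter through the control samples alone, so that its call is no more than a description.

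Of the death receptors for TRAIL, DR4 fell and DR5 did not pass the threshold. TNFRSF10A, encoding DR4, was at 5.20, 5.79 and 5.45 CPM in control and at 1.97, 2.38 and 1.96 CPM after silencing, or 38.4% of control. Its log2 fold change was −1.40 ± 0.10 (SE; adjusted p = 5.18e-09). TNFRSF10B, encoding DR5 and the most abundant TRAIL receptor, was at 152, 152 and 155 CPM in control and at 158, 167 and 155 CPM after silencing. These groups did not overlap, although the highest control (154.8) and the lowest IRF1shRNA sample (155.02 CPM) nearly met. Its log2 fold change was 0.07 ± 0.04 (adjusted p = 0.216), and it passed the threshold upward with upper quartile scaling (0.11) and with library size alone (0.12).

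The decoy receptors were higher after silencing in each of the 3 that could be tested, where the share of all genes was 24.1%. These 3 include TNFRSF10C, which could be tested only because it was high in the IRF1shRNA samples. TNFRSF10D, encoding the truncated decoy DcR2, was at 6.29, 6.56 and 5.57 CPM in control and at 27.4, 26.3 and 24.8 CPM in IRF1shRNA samples. The level was 4.27 times that of control (log2 fold change 2.09 ± 0.08, SE; adjusted p = 5.87e-13), and its rank was 9 from the top of the 13066 genes that averaged 1 CPM or more. TNFRSF11B, encoding osteoprotegerin, which also neutralizes RANKL, rose from 4.75, 4.27 and 4.58 CPM to 8.79, 11.1 and 9.22 CPM. Its log2 fold change was 1.09 ± 0.09 (adjusted p = 2.99e-08). For both genes the lowest IRF1shRNA sample lay well above the highest control.

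TNFRSF10C, encoding the membrane-anchored decoy DcR1, was nearly undetected in control samples, with 6, 1 and 1 counts, and had 66, 17 and 104 counts in IRF1shRNA samples. In CPM these were 0.0487, 0.00816 and 0.00671 against 0.524, 0.306 and 0.632. The ratio of the summed, scaled counts was 26.7, with an exact binomial 95% interval of 13.3 to 62.7 that covers counting error only, and of 10.1 to 100.4 when counts were halved because the mates of a read pair appear to have been counted separately. The fitted log2 fold change of 4.56 ± 0.55 (SE) rests on these few control counts, and was 5.92 without control replicate 1, which held 6 of the 8. TNFRSF10C passed the filter through the IRF1shRNA samples alone, so that its call is no more than a description. As these receptors are close paralogs, reads could be shared between them. TNFRSF10C counts were 0.774%, 0.124% and 0.120% of the TNFRSF10D counts in control samples and 1.91%, 1.16% and 2.55% after silencing, and the part of shared reads in the TNFRSF10C values was not tested.

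**Figure D3:**
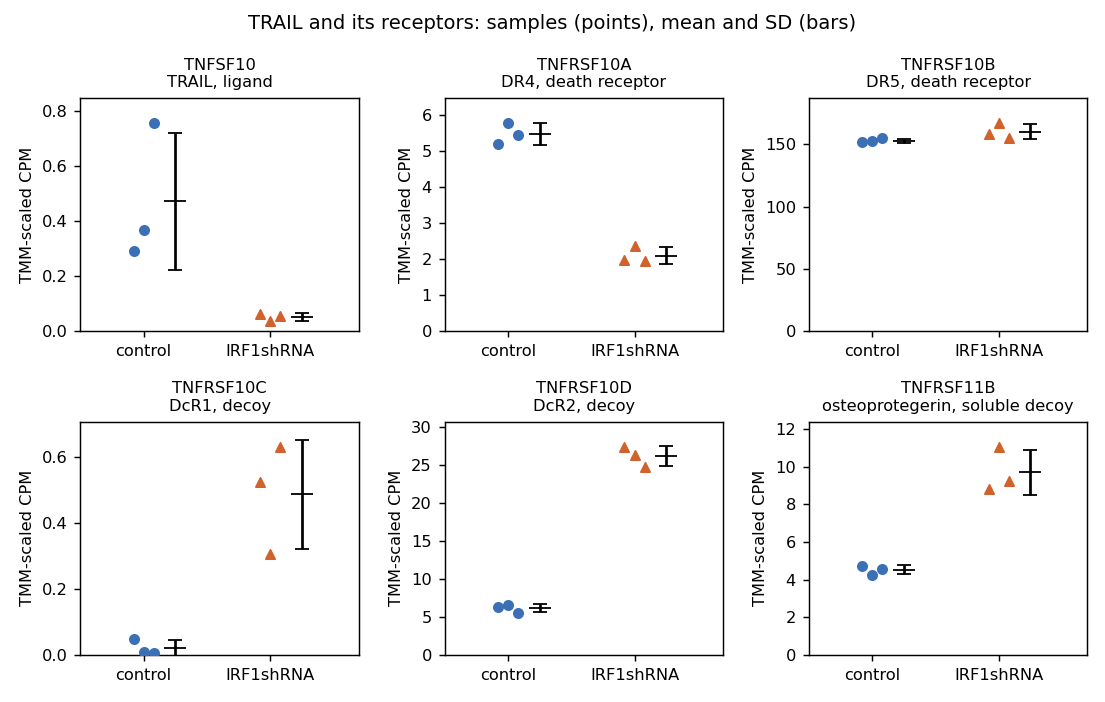
TMM-scaled CPM of TRAIL and its 5 receptors in the 3 control and 3 IRF1shRNA samples (points), with the mean and SD beside them, each panel on its own linear axis from 0. TNFSF10 and TNFRSF10A are lower after silencing, TNFRSF10C, TNFRSF10D and TNFRSF11B are higher, and TNFRSF10B stays between 152 and 167 CPM.

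The 4 membrane receptors for TRAIL are neighbors on chromosome 8. In GENCODE release 29 (GRCh38) they span 205 kb from 23020133 to 23225126, in the order TNFRSF10B, TNFRSF10C, TNFRSF10D and TNFRSF10A, so the genes that rose lie between the gene that did not pass the threshold and the gene that fell. Per length, DR5 made up 88.5% to 89.8% of the membrane TRAIL receptor transcripts in control samples and 77.9% to 79.4% in IRF1shRNA samples. The share of the decoys DcR1 and DcR2 together was 5.47%, 5.58% and 4.72% in control samples and 20.4%, 18.6% and 19.3% in IRF1shRNA samples, with no overlap between the groups. DR4 made up 5.34% to 5.88% in control and 1.69% to 1.97% in IRF1shRNA samples. DR5 therefore remained the main TRAIL receptor transcript in every sample. The antisense gene TNFRSF10A-AS1 overlaps 7.59% of the TNFRSF10A exons and was at 0.105 to 0.208 CPM in control and 0.0360 to 0.0668 CPM in IRF1shRNA samples. The use of strand in counting is not given in the sources used here, and its part in the TNFRSF10A value was not tested.

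The remaining receptors with a death domain were lower or did not pass the threshold. FAS, the receptor for FAS ligand, was at 4.26, 4.21 and 3.82 CPM in control and at 1.64, 2.31 and 1.73 CPM after silencing. Its log2 fold change was −1.15 ± 0.12 (SE; adjusted p = 5.81e-07), a decrease to 46.2% of control. ACTA2, which overlaps 8.94% of the FAS exons on the opposite strand, was at 2.31 to 2.86 CPM in control and 0.944 to 1.40 CPM in IRF1shRNA samples, and its part in the FAS value was not tested.

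TNFRSF21, encoding DR6, and NGFR, the low-affinity neurotrophin receptor, fell by less. TNFRSF21 was at 73.3, 75.6 and 76.4 CPM in control and at 53.7, 56.2 and 57.9 CPM in IRF1shRNA samples (log2 fold change −0.43 ± 0.04, SE; adjusted p = 2.86e-07). NGFR was at 7.89, 7.82 and 8.45 CPM in control and at 5.99, 5.53 and 5.76 CPM in IRF1shRNA samples (−0.48 ± 0.08; adjusted p = 5.58e-05). In neither gene did the groups overlap. TNFRSF1A, which carries most TNF signaling to apoptosis and NF-κB, was at 261, 262 and 289 CPM in control and at 279, 272 and 291 CPM in IRF1shRNA samples, with groups that overlapped (0.05 ± 0.05; adjusted p = 0.404).

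TNFRSF25, encoding DR3, was at 1.25, 1.33 and 1.56 CPM in control and at 1.10, 0.955 and 1.08 CPM after silencing. Its log2 fold change of −0.39 ± 0.16 (SE) passed the threshold narrowly (adjusted p = 0.0485), and the call was lost in 13 of 15 alternative settings, among them DESeq2 (−0.39) and leaving out control replicate 2 (−0.42), control replicate 3 (−0.29), IRF1shRNA replicate 1 (−0.43), IRF1shRNA replicate 2 (−0.34) or IRF1shRNA replicate 3 (−0.42). ESPN overlaps 8.94% of the TNFRSF25 exons on the opposite strand and had 11 to 34 counts per library. EDAR, the ectodysplasin receptor, was at 0.138, 0.155 and 0.161 CPM in control and at 0.302, 0.0721 and 0.304 CPM in IRF1shRNA samples. The spread of the IRF1shRNA samples spanned the control values, and the difference did not pass the threshold (0.69 ± 0.43; adjusted p = 0.197) unless IRF1shRNA replicate 2 was left out (0.997; adjusted p = 0.0353 by edgeR).

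Among the other receptors, which are neither decoys nor receptors with a death domain, 4 were lower and 2 higher of 11 tested. This is 54.5% called, near the 50.5% of all genes. TNFRSF1B, the second TNF receptor, was at 3.94, 4.86 and 6.16 CPM in control and at 1.22, 1.66 and 1.46 CPM in IRF1shRNA samples, or 0.290 times control (log2 fold change −1.81 ± 0.15, SE; adjusted p = 2.89e-08). TNFRSF14, encoding HVEM, the entry mediator that binds LIGHT and the inhibitory receptor BTLA, was at 0.479, 0.579 and 1.01 CPM in control and at 0.0952, 0.144 and 0.134 CPM after silencing. Its log2 fold change was −2.50 ± 0.35 (adjusted p = 1.15e-05), and was −2.11 without control replicate 3, the highest control sample. The groups did not overlap. The antisense gene TNFRSF14-AS1, which overlaps 13.4% of the TNFRSF14 exons, had 6 counts in control replicate 3 and 0 in the other libraries.

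LTBR, the lymphotoxin β receptor, fell moderately from 85.3, 90.5 and 97.9 CPM to 64.3, 62.3 and 66.2 CPM (log2 fold change −0.51 ± 0.05, SE; adjusted p = 2.01e-07). TNFRSF11A, encoding the RANKL receptor RANK, was at 2.09, 2.15 and 2.21 CPM in control and at 1.73, 1.84 and 1.58 CPM in IRF1shRNA samples (−0.34 ± 0.12; adjusted p = 0.0310). The TNFRSF11A groups did not overlap, but the call was lost in 7 of 15 alternative settings, with DESeq2 (−0.33), with upper quartile scaling or library size alone (−0.29 each), and without control replicate 2 (−0.33), control replicate 3 (−0.31), IRF1shRNA replicate 1 (−0.35) or IRF1shRNA replicate 3 (−0.28).

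TNFRSF9, encoding the T cell costimulator CD137, rose from 0.544, 0.359 and 0.315 CPM to 1.09, 0.973 and 1.07 CPM (log2 fold change 1.38 ± 0.23, SE; adjusted p = 6.71e-05). TNFRSF13C, encoding the BAFF receptor of B cells, was at 0.657, 0.604 and 0.838 CPM in control and at 1.08, 0.991 and 1.05 CPM in IRF1shRNA samples (0.57 ± 0.19; adjusted p = 0.0175). Both genes were low, and the groups did not overlap in either. The TNFRSF13C call was lost without control replicate 1 (0.52), control replicate 2 (0.48) or IRF1shRNA replicate 1 (0.54), and when all libraries were thinned to the smallest total (0.41). TNFRSF12A, encoding FN14, was at 109, 115 and 120 CPM in control and at 114, 79.3 and 103 CPM in IRF1shRNA samples. The groups overlapped, IRF1shRNA replicate 2 was the lowest, and the log2 fold change of −0.21 ± 0.09 (SE) missed the threshold narrowly (adjusted p = 0.0513). It passed in 5 of 15 alternative settings, namely without control replicate 1 (−0.25) or IRF1shRNA replicate 1 (−0.33), with no filter (−0.21), after thinning (−0.22) and with a replicate block (−0.23), and was −0.08 without IRF1shRNA replicate 2. CD40, TNFRSF8, TNFRSF18 and TNFRSF19 did not pass the threshold, with log2 fold changes of −0.23, 0.61, 0.75 and −0.23 and adjusted p-values from 0.256 to 0.501 by edgeR.

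The ligands were next compared, of which 9 of 16 could be tested. TNFSF12, encoding TWEAK, the ligand for the receptor FN14, was at 2.79, 2.37 and 2.83 CPM in control and at 0.730, 0.739 and 0.650 CPM in IRF1shRNA samples. It was thus at 26.5% of control after silencing (log2 fold change −1.93 ± 0.14, SE; adjusted p = 6.03e-09). The readthrough gene TNFSF12-TNFSF13 shares 29.4% of the TNFSF12 exons and 55.5% of the TNFSF13 exons and was listed with no count in any sample, so reads in the shared part may be missing from both genes.

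TNFSF15, encoding TL1A, the ligand for DR3, was at 0.325, 0.539 and 0.496 CPM in control and at 0.0159, 0.216 and 0.0729 CPM in IRF1shRNA samples. The groups did not overlap, but the IRF1shRNA values were uneven, with counts of 2, 12 and 12. The log2 fold change was −2.47 ± 0.52 (SE; adjusted p = 0.000687), and was −3.24 without IRF1shRNA replicate 2. TNFSF15 also passed the filter through the control samples alone, so that its call is only a description. TNFSF13B, encoding the B cell survival factor BAFF, was at 0.365, 0.196 and 0.194 CPM in control and at 0.540, 0.468 and 0.638 CPM in IRF1shRNA samples (1.15 ± 0.30; adjusted p = 0.00398).

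CD70, the ligand for CD27 and the most abundant ligand of the family in these cells, rose from 44.1, 45.3 and 51.2 CPM to 61.1, 54.2 and 58.6 CPM. The increase was small, with a log2 fold change of 0.31 ± 0.06 (SE; adjusted p = 2.42e-04), and the groups did not overlap. TNFSF9, the ligand for CD137, was at 10.1, 11.6 and 11.1 CPM in control and at 10.7, 10.6 and 9.73 CPM in IRF1shRNA samples (−0.08 ± 0.08; adjusted p = 0.417). TNFSF4 (0.01 ± 0.26), TNFSF13 (0.33 ± 0.27) and TNFSF14 (−0.06 ± 0.18) did not pass the threshold either, with adjusted p-values of 0.350 to 0.973 by edgeR.

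The other 13 members did not pass the filter on low counts. TNF, LTA and FASLG had at most 4 counts in any library, LTB had none, and TNFSF8, TNFSF11 and TNFSF18 had at most 18. Of the receptors, CD27, TNFRSF4, EDA2R and TNFRSF17 had at most 12 counts in any library, and TNFRSF13B had none. A total of 0 counts allows a level of up to 0.0182 to 0.0540 CPM per library. TNFRSF6B, encoding the soluble decoy DcR3, was listed at 0 in every sample, but 100% of its exons are shared with the readthrough gene RTEL1-TNFRSF6B, at 3.26 to 4.56 CPM over the 6 libraries. The 0 for TNFRSF6B therefore does not show that DcR3 is absent.

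In the pairs listed here, ligand and receptor seldom both reached a mean of 1 CPM. That level leaves out pairs with a scarcer but detected partner, such as TNFSF10 (0.472 CPM in control samples) with TNFRSF10B. No pair with TNFRSF6B was listed, and its level could not be read. Of 27 ligand and receptor pairs listed among the members, 2 had a mean of at least 1 CPM for both partners in control samples. These were TNFSF12 with TNFRSF12A and TNFSF14 with LTBR. In IRF1shRNA samples there were also 2, TNFSF14 with LTBR and TNFSF9 with TNFRSF9, as TNFSF12 fell below 1 CPM and TNFRSF9 rose above it. TNFRSF9 was only just above, at a mean of 1.04 CPM with IRF1shRNA replicate 2 at 0.973 CPM. CD70 was at 58.0 ± 3.49 CPM in IRF1shRNA samples, whereas its receptor CD27 was at 0.0749 ± 0.0477 CPM (SD, n = 3 each).

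**Figure D4:**
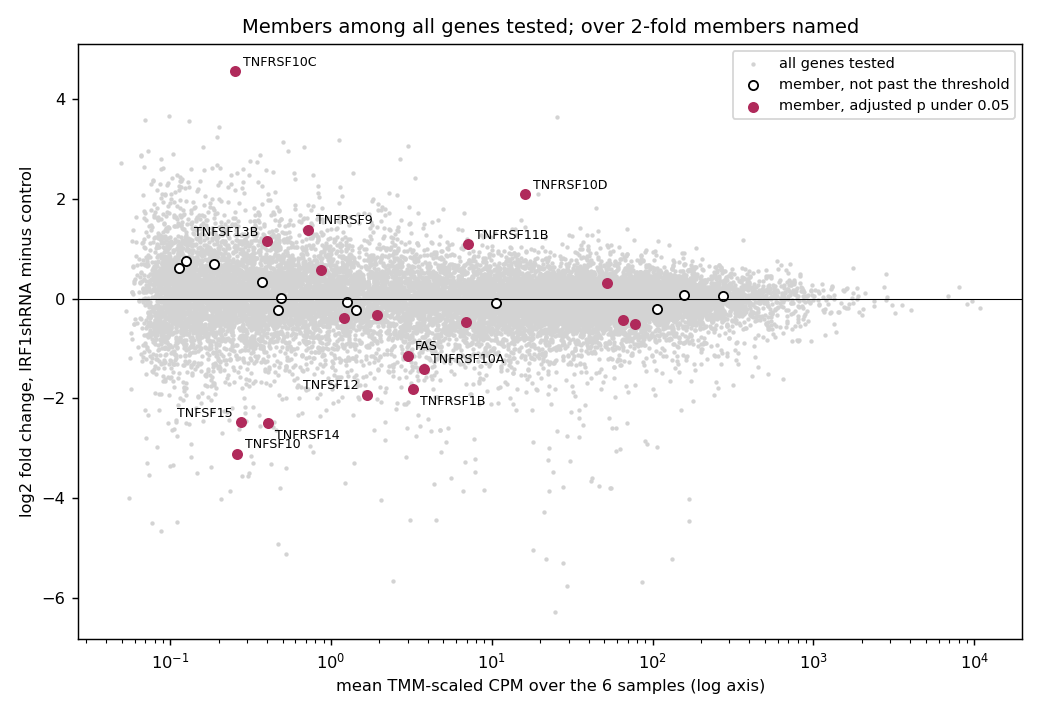
The log2 fold change of all 18851 genes tested (grey) against their mean TMM-scaled CPM over 6 samples (log axis), with the tested members as filled (adjusted p under 0.05) or open circles. The 12 members past a 2-fold change are named. TNFRSF10D ranks 9 from the top of the genes that average 1 CPM or more.

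Promoter sequences were then searched for the core bound by IFN regulatory factors, since IRF1 was the targeted gene. The IFN-stimulated response element (ISRE)-type core was taken as GAAA, any 2 bases and GAAA on either strand (TTTC, 2 bases and TTTC where it lies on the other strand), in RefSeq windows from 250 bases before to 50 bases after each start (GRCh38.p14), and the gamma-activated site (GAS) core as TTCNNNGAA. RefSeq windows were at hand for 29 members. The ISRE-type core was present in a window of 6 of these (20.7% of genes). By window it was present in 8 of 39 (20.5%), against 3.57% of all 35116 windows and 2.98% of the windows of genes tested. It was found in 2 of 9 members that were lower (TNFSF10 and TNFRSF1B), in 1 of 2 that were higher (TNFSF13B), in 2 of 8 that did not pass the threshold (TNFSF9 and TNFSF14) and in 1 of 10 not tested (FASLG). The GAS core was found in TNFRSF9, LTA, LTB and TNFSF11, and in 6 of the 39 windows (15.4%), against 7.66% of all windows. Windows of the same gene can overlap, so that the same site is counted again in TNFSF13B, TNFSF14, LTA and LTB. The ISRE-type core was thus not limited to members that fell, and a match does not show binding.

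The promoters below are shown from 250 bases before to 30 bases after the start, 5′ to 3′ on the strand of the gene, with the ISRE-type core in capitals, to compare a member that fell strongly, another that fell, a member that rose and a member that did not pass the threshold. TNFSF10 (chr3:172523401-172523680, minus strand) holds the core TTTCAGTTTC from position −187, and TNFRSF1B (chr1:12166741-12167020, plus strand) holds TTTCGCTTTC from −10. TNFSF13B (chr13:108269379-108269658, plus strand, the most upstream RefSeq window at hand for it) holds GAAAGTGAAA from 19. GENCODE release 29 starts TNFSF13B further upstream, at 108251240. TNFSF9 (chr19:6530776-6531055, plus strand) holds GAAACGGAAA from −194.
TNFSF10: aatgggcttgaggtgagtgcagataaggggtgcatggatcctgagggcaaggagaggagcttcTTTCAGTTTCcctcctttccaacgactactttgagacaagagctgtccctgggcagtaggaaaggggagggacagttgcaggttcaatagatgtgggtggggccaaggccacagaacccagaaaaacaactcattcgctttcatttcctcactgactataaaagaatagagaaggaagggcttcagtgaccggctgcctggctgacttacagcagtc
TNFRSF1B: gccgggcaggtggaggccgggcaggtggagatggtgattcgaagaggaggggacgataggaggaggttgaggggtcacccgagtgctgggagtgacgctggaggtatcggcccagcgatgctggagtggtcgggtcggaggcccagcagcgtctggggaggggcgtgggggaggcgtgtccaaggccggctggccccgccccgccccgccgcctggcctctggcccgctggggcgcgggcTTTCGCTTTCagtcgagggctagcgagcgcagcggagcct
TNFSF13B: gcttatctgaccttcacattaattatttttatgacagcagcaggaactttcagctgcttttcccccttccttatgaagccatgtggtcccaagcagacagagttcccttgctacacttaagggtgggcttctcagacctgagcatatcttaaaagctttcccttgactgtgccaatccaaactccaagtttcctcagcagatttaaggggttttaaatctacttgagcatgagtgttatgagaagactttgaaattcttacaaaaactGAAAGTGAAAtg
TNFSF9: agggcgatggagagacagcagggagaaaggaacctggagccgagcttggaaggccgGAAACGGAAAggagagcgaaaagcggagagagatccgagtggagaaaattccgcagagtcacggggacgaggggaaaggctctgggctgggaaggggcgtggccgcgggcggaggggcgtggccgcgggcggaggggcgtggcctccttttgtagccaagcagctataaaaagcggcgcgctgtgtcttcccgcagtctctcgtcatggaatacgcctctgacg

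These sequences stand beside the values given above, with ratios to control of 0.109 for TNFSF10, 0.290 for TNFRSF1B, 2.18 for TNFSF13B and 0.948 for TNFSF9. No window was at hand for CD40, CD70, EDAR, NGFR, TNFRSF4, TNFRSF10A, TNFRSF10B, TNFRSF10C, TNFRSF10D, TNFRSF11B, TNFRSF12A, TNFRSF13C, TNFRSF17, TNFSF8 and TNFSF12.

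Signaling partners were examined as a list of 49 genes, of which 45 were tested. Most act downstream of the receptors. The list also holds ADAM17, which sheds ligands, and the relatives CD40LG, EDA and RELT, which are not members by symbol. There were 16 lower and 14 higher, or 66.7% called against 50.5% of all genes (26.4% lower and 24.1% higher). The median log2 fold change was −0.05. The changes were no larger than among all genes, with a median size of 0.21 against 0.28. Only 4.44% were called with a change over 2-fold, against 7.86% of all genes. Of the 49, 38 averaged at least 10 CPM in either group, and small changes are called more easily in abundant genes. In the list of the death-inducing complex, 8 were lower and 3 higher of 12 tested, or 91.7% called. CASP8, the initiator caspase recruited by FADD, averaged 30.8 ± 1.65 CPM before and 18.3 ± 1.16 CPM after silencing (SD, n = 3 each), and its log2 fold change was −0.75 ± 0.07 (SE). The adaptors TRADD (−0.72 ± 0.09) and CRADD (−0.67 ± 0.12) also fell. MLKL, the pore-forming effector of necroptosis, fell by 1.99 on the log2 scale, from 0.994 to 0.263 CPM. The largest adjusted p among these 4 genes was 1.62e-04 by edgeR.

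Of the remaining genes in that list, 2 that block a death signal are given here although they changed by less than the 0.5 on the log2 scale required for naming, a choice made with their values in view. CFLAR, which encodes the caspase-8 inhibitor FLIP, rose by a log2 fold change of 0.23 ± 0.05 (SE; adjusted p = 8.88e-04). XIAP, another inhibitor of apoptosis, fell by 0.31 on the log2 scale (adjusted p = 3.88e-05). Genes of the list that carry a death signal and changed by less than 0.5 went both ways. FADD (−0.34, adjusted p = 0.00655) and BID (−0.43, adjusted p = 2.45e-06) were lower, and DIABLO (0.27, adjusted p = 0.0445) was higher, by edgeR. The list thus holds genes that carry and genes that block a death signal.

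The other arms lay nearer to the 50.5% called among all genes. Of the TRAF and cIAP adaptors, 4 were higher and 2 lower of 10 tested (60.0%). TRAF1, a known NF-κB target, rose (log2 fold change 0.75 ± 0.06, SE; adjusted p = 2.78e-08), whereas TRAF5 fell (−0.996 ± 0.125; adjusted p = 3.13e-06). In the kinase and ubiquitin arm, 4 were lower and 4 higher of 15 tested (53.3%), and RBCK1, a subunit of the linear ubiquitin ligase complex, fell (−0.79 ± 0.05; adjusted p = 4.81e-10). Among 6 NF-κB genes, 3 were higher and 1 lower (66.7%), and none of them changed by 0.5 or more on the log2 scale.

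**Figure D5:**
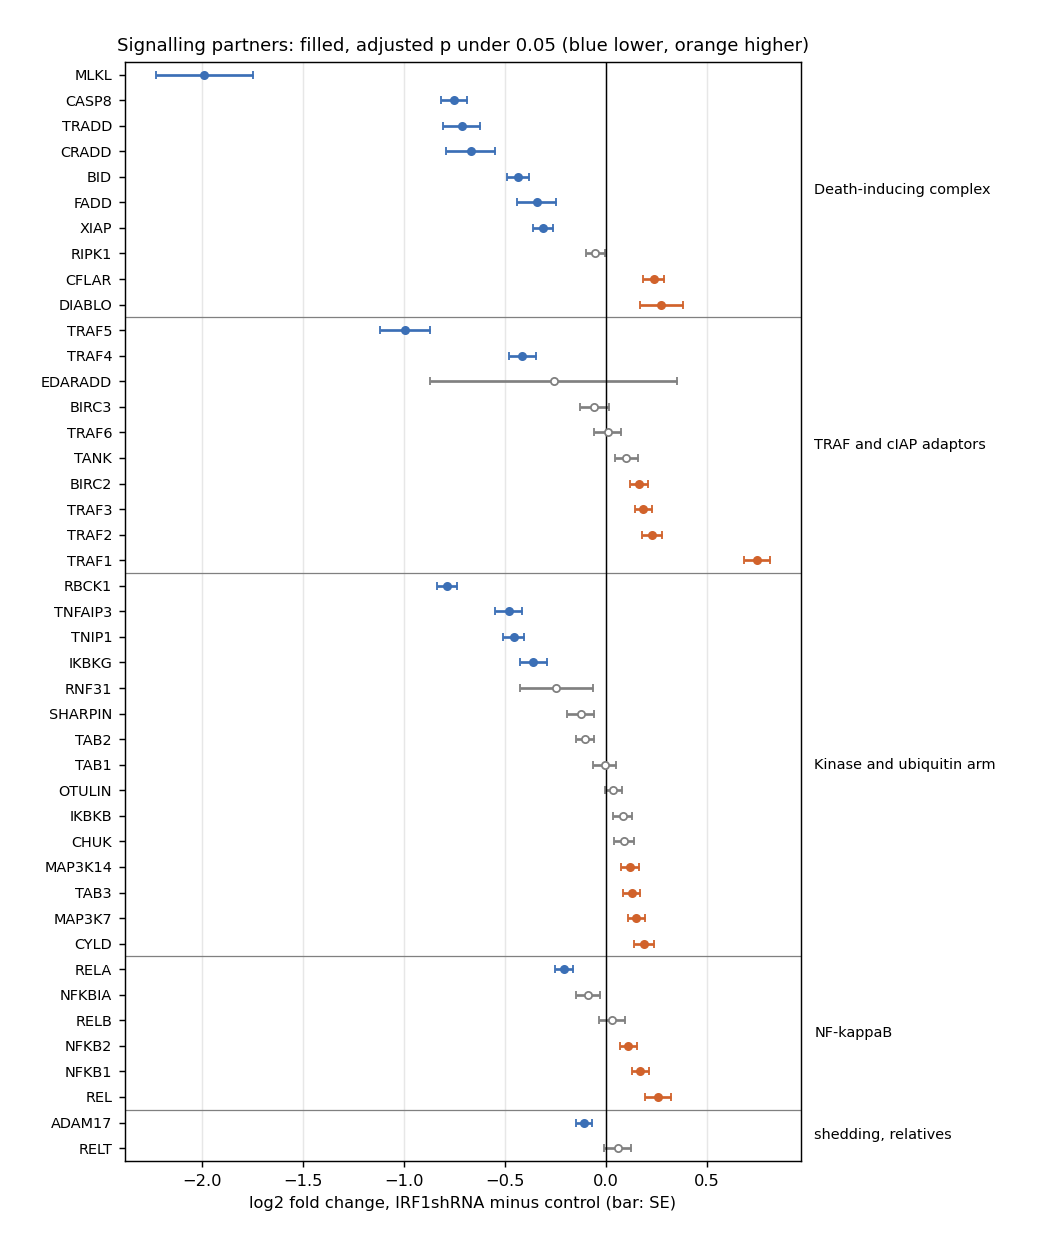
The log2 fold change of 43 of the 45 tested signaling partners, IRF1shRNA minus control, with its SE as a bar, grouped by role. Filled points passed an adjusted p of 0.05 (15 lower in blue, 13 higher in orange). MLKL and TRAF5 lie farthest left, and TRAF1 farthest right at 0.75.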

How the data were processed

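RNA from 3 control and 3 IRF1shRNA samples of BT-549 cells was sequenced after TruSeq Stranded mRNA preparation. The authors deposited raw read counts per gene symbol, and their processing notes name CASAVA 1.8.2, STAR 2.7.9a, featureCounts, DESeq2 1.24.0 and build GRCh38.p7. The annotation, the use of strand and the treatment of read pairs and multi-mapping reads are not given in the sources used here. Among genes with 2 to 11 counts, 72.1% to 75.2% of counts were even, as they would be if mates were counted separately.

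Counts were tested with edgeR 4.0.16 (R 4.3.3, limma 3.58.1) by the quasi-likelihood F test with TMM scaling, filterByExpr at its minimum count of 10, and p-values adjusted by Benjamini-Hochberg over 18851 genes. DESeq2 1.42.0, other scalings and filters, halved and thinned counts, a replicate block and leaving out each sample were alternatives. For the member counts, a threshold of 0.01 on the adjusted p and leaving out TNF, LTA and LTB were further alternatives. SEs were taken as the fold change divided by the square root of F. Intervals and floors (3 counts) cover counting error only. Exon lengths and overlaps came from GENCODE 29 and promoters from RefSeq (GRCh38.p14). The procedure was tested on simulated data.

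Members and lists were chosen with earlier results of these data known. Values per sample were given for TRAIL, its receptors, the death receptors and each member with an adjusted p under 0.05 and a mean of at least 1 CPM in either group, and also for others that passed the test. Signaling partners were named where the adjusted p was under 0.05 and the log2 fold change past 0.5. A few of them are counted in the lists but not reported here by name. Replicates correlated at 0.991 to 0.995 within groups.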

Additional observations from a re-analysis of the deposited data

How the results depend on the processing

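The counts of members and partners stayed within 1.5 times their values in 95 of 98 combinations of count and alternative, and IRF1 stayed lower in 15 of 15 alternatives. Among these combinations, leaving out TNF, LTA and LTB could not change a member count, as none of them was tested. With a filter of 1 CPM reached in 3 or more samples, which left 13204 genes tested and removed scarce members, 3 members were higher, 4 were lower by over 2-fold and 2 were higher by over 2-fold. DESeq2 gave 10 members lower and 7 higher. Leaving out each sample in turn gave 10 to 13 lower and 6 to 8 higher. The share of all genes called was not taken for the alternatives, so these counts have no background beside them. Among single genes, 24 combinations lost a call and 8 gained one. The sign turned only for genes that passed no threshold in the alternatives run, namely TNFSF4 (−0.16 to 0.16 when each sample was left out), TNFSF14 (−0.20 to 0.16 when each was left out and 0.0016 after thinning to the smallest total) and TNFSF13 (−0.043 after thinning). Other scalings moved the median of all genes to at most 0.049 on the log2 scale. Members under 1 CPM rest on few counts per library, and their changes are the least precise.

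The replicate numbers are shared between groups, and deviations of same-numbered samples correlated at −0.0072 to 0.0250. No shared deviation was thus seen, but these correlations cannot tell whether same-numbered samples were handled together. With the replicate number as a block, 12 members were lower and 7 higher, 7 and 5 by over 2-fold, 16 partners were lower and 13 higher, and IRF1 was at −1.74. The 12 were not the same genes, as TNFRSF25 lost its call (−0.40, adjusted p = 0.0558) and TNFRSF12A gained one (−0.23, adjusted p = 0.0172). The share of all genes called with the block was not taken either.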
